A study of Mus musculus with 84 samples.

Results

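The 43 genes described here are type I interferon response genes, a named list of genes that cells switch on when they sense interferon alpha or beta. All 43 were found by symbol among the 41388 mouse genes of a table of read counts from 84 RNA-seq libraries, and all 43 passed the filter on low counts in each of the 3 fits used. The libraries came from sorted blood progenitors of mice with a transgene for MLL-ENL, a human leukemia fusion protein (KMT2A joined to MLLT1), and from controls labelled wild type (41 and 43 libraries in 22 groups). Committed hematopoietic progenitors (HPC), pre-granulocyte-monocyte progenitors (pGM) and their granulocyte-monocyte progeny (GMP) were sorted from liver of newborn mice (P0) and from bone marrow of 10 week old mice, without doxycycline, marked in the labels as fetal induction. Adult marrow HPC were sampled at 6 and 12 months, with 8 weeks of doxycycline marked as adult induction for control and MLL-ENL mice alike. A separate set at 10 weeks compared mice labelled MLL-ENL (x2), again without doxycycline, with controls of its own. Each group had 4 libraries, but P0 pGM controls and every MLL-ENL (x2) group had 3. What x2 means, what drives the transgene and whether animals were pooled is not stated in the labels. The labels do not say that libraries of a group are separate animals, so p-values measure only the spread between these libraries.

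Type I interferons bind the receptor pair Ifnar1 and Ifnar2, whose kinases Jak1 and Tyk2 signal to Stat2. Stat2 acts with Irf9 in a complex that binds interferon-stimulated response elements in the promoters of response genes. Blood stem and progenitor cells are known to keep part of this program on without infection, and interferon is known to drive stem cells into cycle. The members were grouped by role as 3 transcription factors (Irf7, Irf9, Stat2), 3 genes of the ubiquitin-like Isg15 system (Isg15, Usp18, Herc6), 5 nucleic acid sensors with the kinase PKR (Ddx58, Ifih1, Dhx58, Zbp1, Eif2ak2), 4 Ifit genes and 5 Oas genes. The others were 3 GTPases (Mx1, Mx2, Gbp3), 4 Ifitm genes, 6 further antiviral effectors (Rsad2, Cmpk2, Bst2, Samd9l, Trim30a, Sp100), 3 genes of the PARP family and its partner (Parp9, Parp14, Dtx3l) and 7 further induced genes (Ifi27, Ifi27l2a, Ifi35, Ifi44, Xaf1, Rtp4, Lgals3bp).

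Upstream sequences are shown first, since response elements lie in promoters. All 5 members shown hold a match to the core of the element, which not every member does. The 250 bases before the RefSeq start of 5 members follow 5′ to 3′ on the gene's strand (GRCm38.p6), with matches to the core (GAAA, any 2 bases, then GAAA), on either strand, in capitals. Isg15 (chr4:156200819-156201068, minus strand), Bst2 (chr8:71537473-71537722, minus) and Rsad2 (chr12:26456453-26456702, minus) are shown as members with 3, 2 and 1 matches, and Ifit3 (chr19:34583279-34583528, plus) with Ifit3b (chr19:34607707-34607956, plus) as near-identical copies.
Isg15: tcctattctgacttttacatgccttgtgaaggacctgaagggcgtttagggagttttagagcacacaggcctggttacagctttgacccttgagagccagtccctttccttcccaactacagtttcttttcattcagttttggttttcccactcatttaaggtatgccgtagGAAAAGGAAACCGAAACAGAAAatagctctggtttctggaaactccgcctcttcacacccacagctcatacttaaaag
Bst2: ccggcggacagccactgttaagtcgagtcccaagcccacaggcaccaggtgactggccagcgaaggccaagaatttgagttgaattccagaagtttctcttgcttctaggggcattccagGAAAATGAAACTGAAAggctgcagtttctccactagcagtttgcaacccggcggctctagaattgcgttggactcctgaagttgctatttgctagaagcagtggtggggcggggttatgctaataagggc
Rsad2: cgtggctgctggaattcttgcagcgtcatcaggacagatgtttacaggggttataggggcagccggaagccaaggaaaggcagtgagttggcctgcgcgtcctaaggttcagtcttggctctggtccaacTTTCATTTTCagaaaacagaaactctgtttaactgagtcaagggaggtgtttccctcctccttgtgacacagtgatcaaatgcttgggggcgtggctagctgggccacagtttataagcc
Ifit3: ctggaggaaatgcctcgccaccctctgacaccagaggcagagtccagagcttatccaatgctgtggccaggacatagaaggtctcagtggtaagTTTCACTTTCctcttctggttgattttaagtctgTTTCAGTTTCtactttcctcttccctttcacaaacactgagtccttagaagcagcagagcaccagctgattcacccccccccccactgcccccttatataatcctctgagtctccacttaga
Ifit3b: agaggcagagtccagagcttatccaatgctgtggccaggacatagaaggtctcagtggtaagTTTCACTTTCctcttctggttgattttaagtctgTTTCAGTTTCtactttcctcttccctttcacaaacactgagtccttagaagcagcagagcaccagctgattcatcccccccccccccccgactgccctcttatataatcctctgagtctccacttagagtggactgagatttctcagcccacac
In Isg15 the 3 matches overlapped one another and started 78 to 66 bases before the gene's start, and in Bst2 both overlapped, 130 and 124 bases before it. The Ifit3 and Ifit3b stretches shared an unbroken run of 169 of 250 bases, and reads of this pair of genes may have been split between them. RefSeq promoter windows of 300 bases (250 before the start, 50 after it) were found for 32 of the 43 members. The core occurred in 16 of these 32 genes (50%), against 3.99% of 27025 genes with a promoter in the table. It was found in Bst2, Ddx58, Eif2ak2, Gbp3, Ifih1, Ifit1, Ifit3, Ifit3b, Ifitm2, Ifitm3, Isg15, Oas1a, Oas3, Rsad2, Stat2 and Trim30a. A second motif, TTCNNNGAA (the palindrome bound by STAT dimers, which reads the same on both strands), occurred in 7 of 32 members (21.9%) and in 9.55% of all genes. A match is a description of letters, not of binding, and the members were listed as response genes to begin with.

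Several members lie in clusters, by GENCODE vM21 on GRCm38. Ifit2, Ifit3, Ifit3b and Ifit1 occupy chr19:34550694-34650009. Ifitm2, Ifitm1, Ifitm3, Ifitm6 and Irf7 fall within chr7:140954837-141266481, Oas2, Oas3 and Oas1a within chr5:120730333-120907521, and Mx1 and Mx2 within chr16:97447035-97560900. Levels between genes were compared as CPM (a gene's reads scaled to its library's effective size) per kilobase of exon, averaged over all libraries. Ifitm2 (1600), Ifitm3 (835) and Ifitm1 (402), membrane proteins that block entry of viruses, stood highest, followed by the secreted Lgals3bp (167), Ifi27 (165) and Bst2 (130), also called tetherin. Ifit3b (0.69), Mx1 (0.621) and Mx2 (0.576) were lowest. Zero counts occurred in 15 libraries for Ifit3b, 5 for Ifit3, 2 for Ifi44 and 1 each for Mx1 and Mx2. Exons of Ifitm2 overlapped those of another gene model (Gm45717) on the same strand over 40.9% of their length. Strand cannot assign reads in that stretch to 1 gene. Parp9 and Dtx3l overlapped on opposite strands (9.4% and 8% of exon length). No source used here gives the strand setting of the counting, so reads shared by Parp9 and Dtx3l cannot be assigned to 1 gene.

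Libraries held 7.62 M to 29.47 M counts (M, mega; median 14.75 M). Transgene reads were at 0 to 0.625 CPM in controls and 0.44 to 21.1 CPM in MLL-ENL libraries. Libraries of a group differed by more than sampling noise in all 120 pairs (chi-square over its degrees of freedom, 9.14 to 163.12). As a check of the sorted fractions, the summed CPM of 14 genes of granulocyte-monocyte progenitors was 4050, 14800 and 72200 in P0 control HPC, pGM and GMP, and 4290, 24100 and 110000 at 10 weeks. The 10 week MLL-ENL libraries labelled 73 went against their labels in HPC and pGM. That sum was 22500 in the library labelled 73 HPC (3280 to 5070 in the other 3 of its group) and 4300 in the library labelled 73 pGM (21100 to 31100), each within the range of the fraction it was not labelled as. Scores, MLL-ENL counts by age and by genotype, Irf7 by age and the Ifitm6 difference between effects are given with and without both. Levels and fold changes of other members in 10 week MLL-ENL HPC and pGM include them.

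The interferon score, the mean over all 43 members of log2 CPM (prior count 2), ran from 3.53 to 6.30 over the 22 groups. It was highest in HPC and lowest in GMP wherever all 3 fractions were sampled, at P0 and 10 weeks. In P0 controls it was 6.16 ± 0.52 in HPC (SD, n = 4), 5.28 ± 0.61 in pGM (n = 3) and 4.40 ± 0.62 in GMP (n = 4). In 10 week controls it was 5.56 ± 0.12, 4.85 ± 0.08 and 3.95 ± 0.08 (n = 4 each). MLL-ENL libraries gave 6.30 ± 0.43, 5.30 ± 0.51 and 4.51 ± 0.52 at P0 and 5.32 ± 0.41, 4.86 ± 0.35 and 3.78 ± 0.14 at 10 weeks (n = 4 each). Without the libraries labelled 73, which scored 4.73 in HPC and 5.37 in pGM, the 10 week MLL-ENL means were 5.52 ± 0.11 in HPC and 4.69 ± 0.09 in pGM (n = 3 each). In the x2 set, controls were at 5.61 ± 0.07, 4.91 ± 0.11 and 3.67 ± 0.11 (n = 4 each), and MLL-ENL (x2) libraries at 5.47 ± 0.11, 4.6 ± 0.09 and 3.53 ± 0.26 (n = 3 each). HPC at 6 months had 5.37 ± 0.13 in controls and 5.39 ± 0.05 in MLL-ENL mice, and at 12 months 5.29 ± 0.25 and 5.48 ± 0.11 (n = 4 each). The group mean was lower at the later stage in 12 of 12 steps (HPC to pGM or pGM to GMP). Control and MLL-ENL libraries of the same age and fraction overlapped in score, except in pGM of the x2 set (4.78 to 5.02 in controls, 4.5 to 4.67 in MLL-ENL (x2) libraries). P0 means lay above 10 week means in all 3 control fractions, but the libraries overlapped. P0 control number 2 scored 5.54 in HPC, within the 10 week control range (5.46 to 5.69). It lay below every 10 week control in pGM (4.65 against 4.76 to 4.93) and GMP (3.79 against 3.85 to 4.05). The score gives each member equal weight, and no p-value was attached to it.

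**Figure D1:**
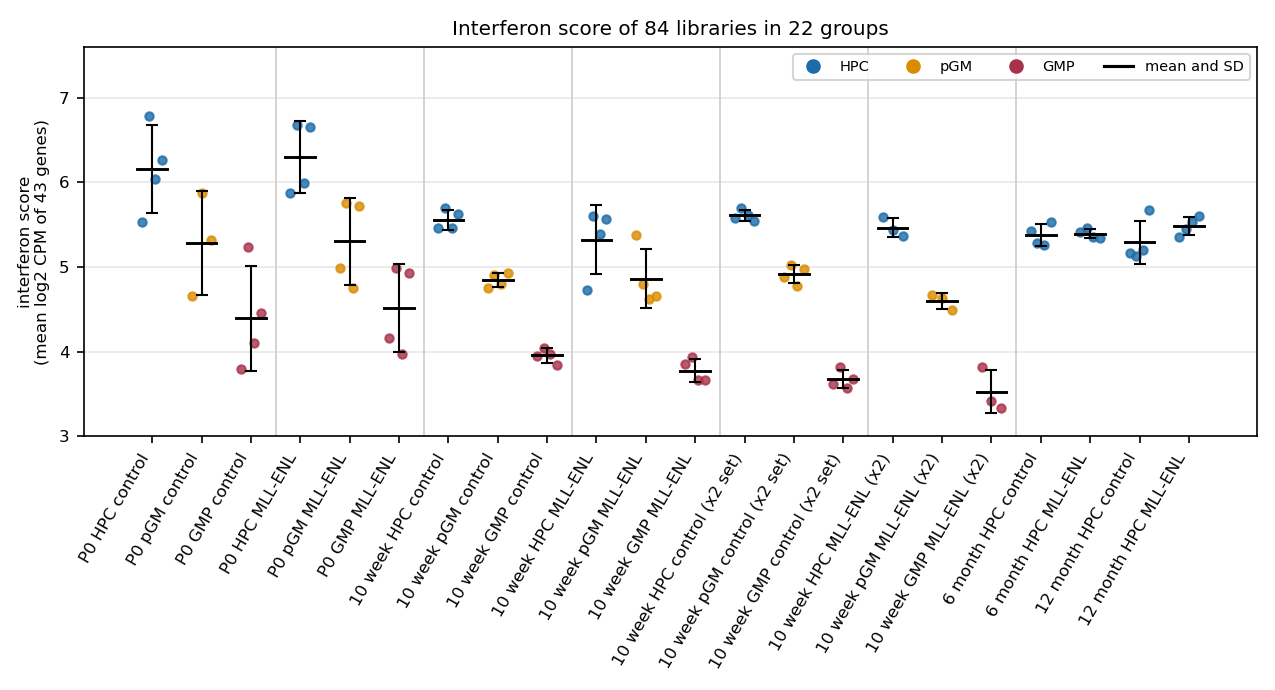
Interferon score (mean log2 CPM of 43 genes, vertical axis) of each of the 84 libraries by group, with points for libraries and bars for the group mean and SD. HPC groups sit above pGM groups and pGM above GMP groups in each set, and the P0 groups are spread most widely.

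Along the myeloid path of control mice, 37 to 41 of 43 members had a negative fold change at each step (47.9% to 53.5% of all genes), and 4 to 30 passed the test as lower. Ifi44 was lower in all 6 steps tested (HPC to pGM and pGM to GMP, in P0, 10 week and x2-set controls), and Irf7, the factor that amplifies interferon gene transcription, in 5 of 6. In edgeR's quasi-likelihood test at a false discovery rate (FDR) of 0.05 over all genes, 33 of 43 members were lower in at least 1 step (21.5% of 13930 genes tested in all 6) and 34 had a negative fold change in all 6 (15.8%). In bulk samples fewer cells of a type and less RNA per cell cannot be told apart. At P0, 6 members were lower and 0 higher in pGM than in HPC (4.52% of all genes lower, 3.19% higher; members' median log2 fold change -0.78, all genes 0.02). In GMP against pGM 11 were lower and 1 higher (7.5% and 6.43%; median -0.64, all genes -0.03). At 10 weeks 4 members were lower and 1 higher in pGM than in HPC (3.5% and 2.71%; median -0.67, all genes 0.01), and 17 were lower and 0 higher in GMP than in pGM (9.97% and 5.76%; median -0.71, all genes -0.04). In the x2-set controls, 22 members were lower and 1 higher in pGM than in HPC (6.37% and 5.85%; median -0.68, all genes 0.01), and 30 were lower and 0 higher in GMP than in pGM (14.3% and 8.25%; median -1.0, all genes -0.03).

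Ifi44, an interferon-induced protein, had 15.3, 93, 31.2 and 37.9 CPM in the 4 P0 control HPC libraries, 1.61, 10.9 and 4.6 CPM in pGM, and 0, 1.69, 0.488 and 0.459 CPM in GMP. The HPC and pGM libraries did not overlap, whereas the lowest pGM library lay among the GMP libraries. The log2 fold change was -2.95 ± 0.60 (SE) from HPC to pGM (FDR = 0.000967) and -3.12 ± 0.68 from pGM to GMP (FDR = 0.000908). At 10 weeks Ifi44 stood at 52.5, 74.5, 50.9 and 77.5 CPM in control HPC, 17.4 to 23.4 CPM in pGM and 2.69, 2.95, 2.32 and 1.88 CPM in GMP, with no overlap at either step. Irf7 had 101, 87.3, 96.4 and 135 CPM in 10 week control HPC, 31.8, 31.7, 31.5 and 33.3 CPM in pGM and 7.66, 8.85, 11.2 and 8.24 CPM in GMP. Each Irf7 fraction was separate from the next, with log2 fold changes of -1.70 (FDR = 0.0232) and -1.87 (FDR = 0.00665). Rtp4, a chaperone of membrane receptors, was at 173, 178, 293 and 238 CPM in x2-set control HPC, 67.8, 75, 86.6 and 77.7 CPM in pGM and 8.32, 8.54, 6.64 and 8.52 CPM in GMP. From pGM to GMP Rtp4 changed by -3.28 ± 0.23 on the log2 scale, the smallest p of any member in that step (FDR = 9.82e-10).

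By role, the P0 step from HPC to pGM lowered the transcription factors Irf7 (log2 fold change -1.94) and Stat2 (-1.04), Ifit2 (-0.94), Samd9l (-1.26) and the nuclear-body protein Sp100 (-0.87) beside Ifi44. From pGM to GMP at P0, Ifi27l2a fell from a mean of 45.5 to 3.76 CPM (-3.60 ± 0.44, FDR = 1.32e-07). With it fell Ifit2 (-0.76), Ifit3b (-3.49), Mx1 (-2.10), Mx2 (-1.36), Usp18 (-1.54), which removes Isg15 from proteins, Rsad2 (-1.93), also called viperin, Parp9 (-1.06), Parp14 (-0.88) and Xaf1 (-1.43). At 10 weeks the members lower in pGM than in HPC were Irf7, Ifi44 (-1.70), Rtp4 (-1.69) and the RNA sensor Ddx58, or RIG-I (-1.25). In GMP against pGM at 10 weeks the 10 with the smallest p were Ifi27l2a (-2.32), Ifi44 (-3.03), Rtp4 (-2.77), Ifitm1 (-1.15), Rsad2 (-2.37), Parp14 (-1.03), Irf9 (-0.95), Irf7, Oasl2 (-1.65) and Usp18 (-1.86). In the x2-set controls they were Oasl2 (-1.31), Rtp4 (-1.51), Ifi44 (-1.90), Irf7 (-1.41), Isg15 (-1.11), Oas3 (-1.61), Ifi27 (-0.77), Ddx58 (-1.18), Ifitm3 (-0.87) and Trim30a (-0.54) for pGM. For GMP they were Rtp4, Oasl2 (-2.05), Ifi44 (-3.98), Ifi27l2a (-3.01), Ifit1 (-2.76), Irf7 (-2.19), Usp18 (-2.42), Oas3 (-2.85), Rsad2 (-3.07) and Oasl1 (-1.70). Of the 5 Oas genes, a family named for enzymes that make oligoadenylates on sensing double-stranded RNA, 4 were lower at each x2-set step.

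A few members went the other way or were not called. Ifitm6 was higher in GMP than in pGM at P0 (1.58 ± 0.53, FDR = 0.0368) and in pGM than in HPC at 10 weeks (2.17 ± 0.58, FDR = 0.0167; 4.61 against 1.08 CPM). Its P0 GMP control libraries stood at 20.4, 134, 56.9 and 99.7 CPM and overlapped the pGM libraries (31.3, 25.7 and 21.2 CPM). The summed CPM of 8 neutrophil markers was 1340 to 24200 in those P0 GMP libraries and 28.1 to 377 in pGM, and its part in the Ifitm6 result was not tested. Gbp3, a guanylate-binding protein, was higher in x2-set pGM than HPC (0.68, FDR = 0.0144). Ifih1, Eif2ak2, Oas1a, Ifitm2, Cmpk2, Bst2, Dtx3l and Ifi35 (8 members) were called in no step. Bst2 was nearly level in 10 week controls, at 105 ± 23.2, 111 ± 12.5 and 113 ± 27.2 CPM (SD, n = 4 each) in HPC, pGM and GMP.

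With the number in the label as a block, which the deviations of same-numbered libraries allowed in these steps, 23 members were called in P0 GMP against pGM (22 lower and 1 higher, beside 10% and 9.62% of all genes) and 26 in 10 week pGM against HPC (25 lower and 1 higher, beside 7.96% and 5.05%). Without a block, leaving out single libraries moved the P0 GMP count from 2 (without pGM number 3) to 21 (without GMP number 3), with 6 or 7 without GMP number 5, 2 or 4. It moved the 10 week pGM count from 5 to 0 (without pGM 88), 1 (without HPC 76 or pGM 80), 2 (without HPC 88 or pGM 87) and 3 (without HPC 80 or pGM 76). The P0 pGM count of 6 was 3 without pGM number 2 or 5.

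Markers of other cells moved along the steps as well. Of 16 monocyte and dendritic cell genes, 11 were lower and 0 higher in P0 pGM than in HPC (summed CPM 26100 in HPC, 2700 in pGM), and 9 were lower and 2 higher in P0 GMP (2470). At 10 weeks 0 were lower and 8 higher in pGM (2380 in HPC, 2880 in pGM), and 5 were lower and 1 higher in GMP (3260). In the x2-set controls 3 of 14 tested were lower and 3 higher in pGM (2430 in HPC, 2040 in pGM), and 6 lower and 2 higher in GMP (3340). Of 12 plasmacytoid dendritic cell genes tested, 8, 9 and 9 were lower in GMP than in pGM at P0, at 10 weeks and in the x2 set, and 1 was higher each time. Their summed CPM in pGM and GMP was 1000 and 701 at P0, 2110 and 747 at 10 weeks and 1820 and 737 in the x2 set. From HPC to pGM 0, 1 and 4 of them were lower and 2, 2 and 1 higher. The part of these cells in the members' steps was not tested.

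Between P0 liver and 10 week bone marrow, Irf7 was lower and Gbp3 higher at 10 weeks in all 3 fractions of both genotypes. Tissue changes with age here, so age and tissue cannot be told apart. In control HPC, 8 members were lower and 1 higher at 10 weeks (9% and 7.28% of all genes). In control pGM 4 were lower and 3 higher (5.17% and 3.99%), and in control GMP 9 were lower and 2 higher (7.95% and 4.29%). In MLL-ENL libraries the counts were 17 lower and 2 higher in HPC (10.1% and 11.7%), 7 and 4 in pGM (8.03% and 7.17%) and 16 and 4 in GMP (12.3% and 7.92%). The members' median log2 fold change was -0.47, -0.47 and -0.35 in control HPC, pGM and GMP and -0.83, -0.36 and -0.88 in MLL-ENL libraries, where that of all genes lay between -0.07 and 0.01. In at least 1 of the 6 comparisons 26 members were lower (26.2% of all genes) and 6 higher (22.6%; Gbp3, Sp100, Ifi44, Ifit2, Ifitm1, Ifitm2), with Ifit2 and Ifitm1 in both directions.

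Irf7 had 213, 668, 312 and 475 CPM in P0 control HPC against 101, 87.3, 96.4 and 135 CPM at 10 weeks. Every P0 library lay above every 10 week library (log2 fold change -2.0 ± 0.48, FDR = 0.00228). In pGM the P0 controls stood at 47.3, 178 and 99.1 CPM against 31.5 to 33.3 CPM (-1.76 ± 0.50, FDR = 0.0187), and in GMP at 16.7, 94.5, 28.4 and 44.2 CPM against 7.66 to 11.2 CPM (-2.39 ± 0.50, FDR = 0.000805). Neither overlapped. MLL-ENL libraries gave -2.80 ± 0.49 in HPC (545 ± 218 against 75.8 ± 31.7 CPM, SD, n = 4 each), -1.80 ± 0.48 in pGM (171 ± 76 against 49.3 ± 39.5 CPM) and -3.39 ± 0.52 in GMP (78.7 ± 50.4 against 7.71 ± 0.581 CPM). MLL-ENL pGM overlapped between ages, since the library labelled 73 had 109 CPM and the other 10 week libraries 28.6 to 30.5 CPM. Without both libraries labelled 73 the Irf7 changes were -2.58 ± 0.48 in HPC (FDR = 0.000164) and -2.51 ± 0.49 in pGM (FDR = 0.000292).

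Stat2, the partner of Irf9, was called in none of the 6. It averaged 48.7 CPM in P0 control HPC and 40.6 CPM at 10 weeks, and its log2 fold changes in control HPC, pGM and GMP were -0.27, 0.43 and 0.62 (FDR = 0.545, 0.398 and 0.131 in edgeR). In MLL-ENL libraries they were -0.66, 0.47 and 0.54, none past the threshold. Irf9 was called in 1 of the 6 comparisons, lower in MLL-ENL GMP (-0.70, FDR = 0.0405). Isg15, the ubiquitin-like modifier, had 40.9, 146, 73.9 and 95.3 CPM in P0 control HPC and 27.3, 47.9, 27 and 51 CPM at 10 weeks. These libraries overlapped (-1.22 ± 0.51, FDR = 0.102), as did those of pGM (-1.50, FDR = 0.0767) and GMP (-1.01, FDR = 0.224), and Isg15 passed the test in MLL-ENL HPC alone of the 6 comparisons (-1.39, FDR = 0.0458). Usp18 had means of 165, 104 and 36 CPM in P0 control HPC, pGM and GMP and of 103, 46.9 and 13.2 CPM at 10 weeks. It fell in control GMP (-1.48, FDR = 0.0457) and MLL-ENL GMP (-1.84, FDR = 0.00764), while its values in control HPC (-0.68) and pGM (-1.16) did not pass.

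Among the sensors, Eif2ak2 (PKR, which halts translation on double-stranded RNA) fell in control GMP from 51.3 to 31.5 CPM (FDR = 0.0258). In MLL-ENL libraries Dhx58 (LGP2) fell in HPC (-1.41), pGM (-0.89) and GMP (-0.97), and Ddx58 in GMP (-1.12). All 4 Ifit genes, whose proteins bind foreign RNA, fell in MLL-ENL HPC (Ifit1 -1.85, Ifit2 -1.36, Ifit3 -2.44 and Ifit3b -2.94), and Ifit1 also in MLL-ENL pGM (-1.49, FDR = 0.0392) and GMP (-2.27, FDR = 0.00431). Control HPC lost Ifit2 (-0.79, FDR = 0.00549), while Ifit3 had values of -0.86, -1.53 and 0.09 in control HPC, pGM and GMP that did not pass. Ifit3 was low, at 8.93 ± 7.73 CPM in P0 control HPC and 4.93 ± 1.67 CPM at 10 weeks, but at 19.9 ± 9.17 and 3.53 ± 1.70 CPM in MLL-ENL HPC (SD, n = 4 each). Ifit2 was higher at 10 weeks in MLL-ENL GMP (0.66, FDR = 0.0237). Oas2 fell in control GMP (10.4 to 1.98 CPM, FDR = 0.00414) and in MLL-ENL HPC (48 to 9.28 CPM, -2.31), pGM (23.2 to 5.43 CPM, -2.09) and GMP (12.2 to 1.32 CPM, -3.23). Its values in control HPC (-1.20, FDR = 0.127) and pGM (-1.70, FDR = 0.0565) did not pass, although those libraries did not overlap between ages.

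The 3 GTPases divided. Mx1, which blocks influenza viruses, had 9.83, 18.6, 9.76 and 22.5 CPM in P0 control HPC and 0.689, 1.24, 1.05 and 0.591 CPM at 10 weeks (-4.10 ± 0.66, FDR = 1.07e-05). The groups lay far apart, and Mx1 also fell in control pGM (-3.04) and in MLL-ENL HPC (-2.49), pGM (-2.66) and GMP (-2.99). Gbp3 had 31.6, 28.6, 39.9 and 28.7 CPM in P0 control HPC and 65.7, 82.1, 52.6 and 61.2 CPM at 10 weeks (1.02 ± 0.18, FDR = 5.58e-05). In control GMP it had 35.4, 39.5, 27.2 and 21.2 CPM at P0 and 119, 98.4, 119 and 96.5 CPM at 10 weeks (1.78 ± 0.18, FDR = 3.11e-09). No 10 week library fell into the P0 range in either fraction. Gbp3 was also higher at 10 weeks in control pGM (1.13), and in MLL-ENL HPC (0.87), pGM (1.63) and GMP (1.86). Sp100 was higher in control pGM (0.92 ± 0.16, FDR = 0.000158) and GMP (0.91 ± 0.15, FDR = 3.1e-05) and in MLL-ENL pGM (1.03) and GMP (0.70). Ifi44 was higher in control pGM (5.7 to 19.7 CPM, 1.78 ± 0.57, FDR = 0.0409) and in MLL-ENL pGM (2.17) and GMP (2.45).

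**Figure D2:**
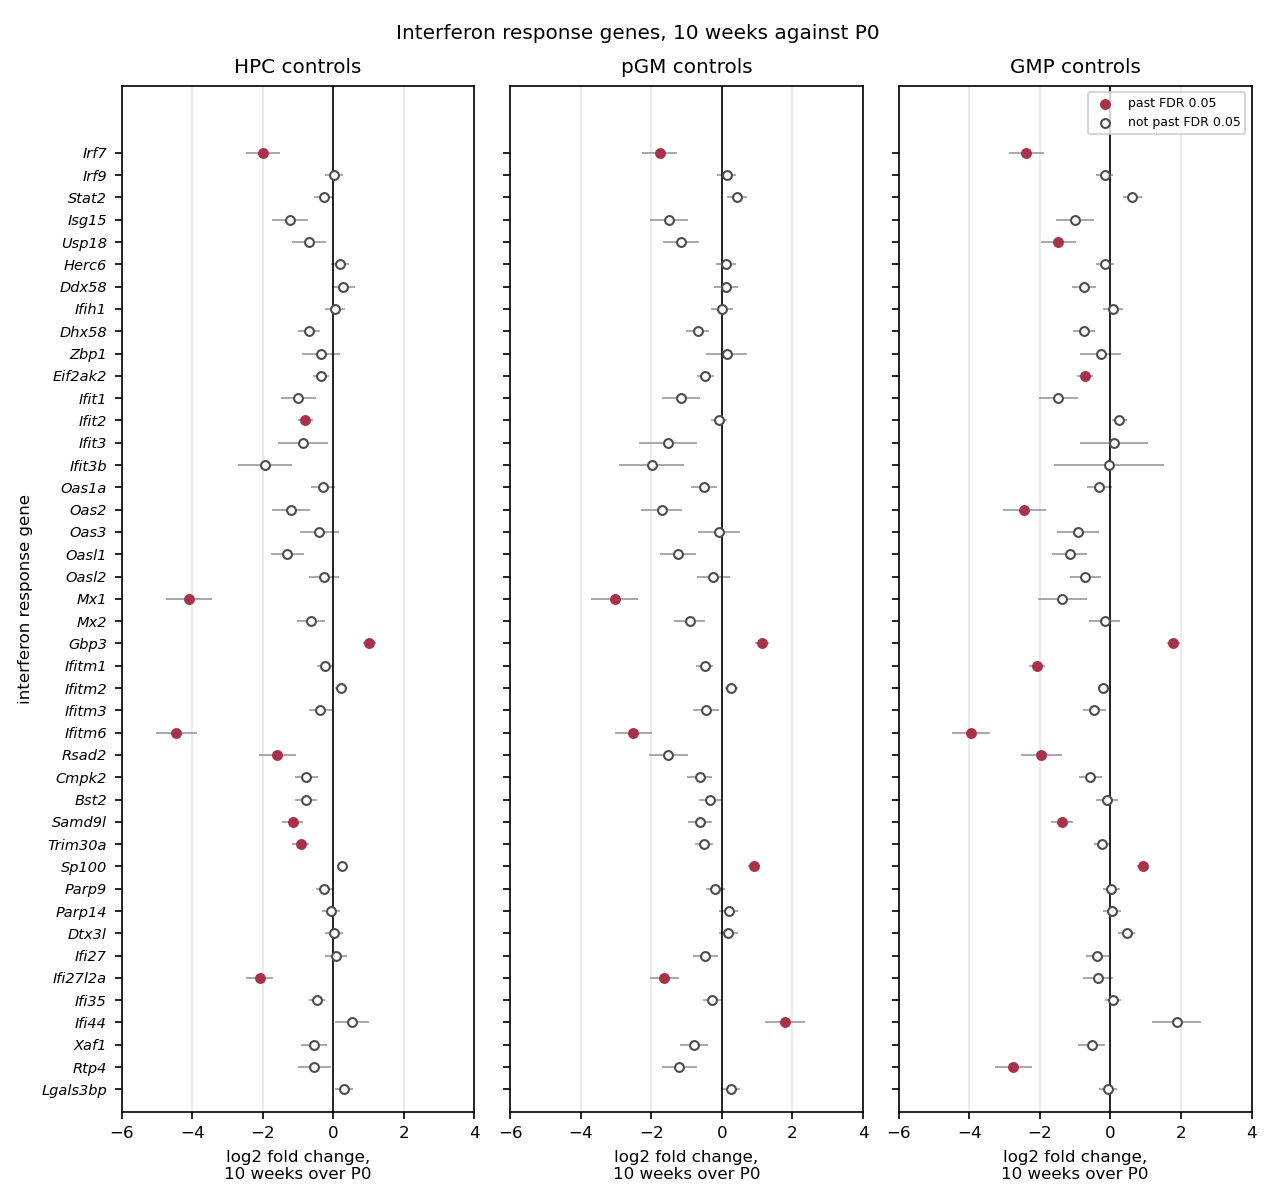
Log2 fold change of each of the 43 members between 10 weeks and P0 in control HPC, pGM and GMP (horizontal axes, bars for 1 SE), with filled points for members past FDR 0.05. Irf7 and Ifitm6 lie to the left and Gbp3 to the right in all 3 fractions.

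Ifitm6, an Ifitm gene with far lower levels than its neighbors, had 20.9, 20.8, 19.4 and 28 CPM in P0 control HPC and 0.443, 1.91, 0.985 and 0.96 CPM at 10 weeks (-4.45 ± 0.59, FDR = 3.39e-07). The 2 ages were far apart, and Ifitm6 fell as well in control pGM (-2.50 ± 0.53) and GMP (-3.95 ± 0.53) and in MLL-ENL HPC (-1.54) and GMP (-4.05). Ifitm1 fell in control GMP from 750 to 182 CPM (-2.08 ± 0.24, FDR = 3.11e-08) and in MLL-ENL GMP (-1.17), but was higher at 10 weeks in MLL-ENL pGM (0.69, FDR = 0.0336). Ifitm2 was higher in MLL-ENL HPC (0.57). Ifi27l2a fell in control HPC from 96 to 22.6 CPM (FDR = 0.000105) and in control pGM from 45.5 to 14.7 CPM (-1.63). Rtp4 fell in GMP of both genotypes (-2.75 and -3.52). Of the further effectors, Rsad2 fell in control HPC (86.4 to 28.8 CPM, FDR = 0.0289) and GMP (-1.96) and in MLL-ENL HPC, pGM and GMP (-2.20, -1.69 and -2.31). Samd9l fell in HPC and GMP of both genotypes (controls -1.16 and -1.38, MLL-ENL -1.65 and -1.28), Trim30a in HPC of both (-0.93 and -0.96), and Cmpk2 in MLL-ENL pGM (-1.78). Bst2 had 180 ± 65.5 CPM in P0 control HPC and 105 ± 23.2 CPM at 10 weeks (-0.77, FDR = 0.0768), and its other 5 values lay between -0.33 and 0.02. Parp9 fell in MLL-ENL HPC (-0.92), and Parp14 and Dtx3l were called in none of the 6.

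Other cells differed between ages as well. The summed CPM of 16 monocyte and dendritic cell genes was 14400 to 35100 in P0 control HPC and 2250 to 2660 at 10 weeks, that of 13 plasmacytoid dendritic cell genes 590 to 731 and 2350 to 2880, and that of 12 tissue macrophage genes 50.7 to 82.4 and 11.3 to 75.3. In control GMP the 8 neutrophil genes summed to 1340 to 24200 CPM at P0 and 38.6 to 456 CPM at 10 weeks. Their part in the age results was not tested. In MLL-ENL HPC the monocyte and dendritic cell sum was 3010 to 5690 at P0 and 2140 to 2980 at 10 weeks. Without the libraries labelled 73, the MLL-ENL counts were 18 in HPC (16 lower) and 16 in pGM (13 lower). The share of all genes called in that fit was not computed. The MLL-ENL pGM count of 11 was 7 without P0 number 3 or 5 or 10 week 74 or 78, and the MLL-ENL GMP count of 20 was 11 without P0 number 5.

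In adult HPC, 0 members differed between 12 and 6 month controls (edgeR; 0.421% of all genes higher, 0.138% lower; 2 members with unadjusted p under 0.05; Bst2 alone lower in DESeq2). Mean Irf7 levels were 75.2 ± 33.3 CPM (12 months) and 70.6 ± 14.2 CPM (6 months; SD, n = 4 each). Stat2 stood at 47.3 ± 4.03 and 39.3 ± 11.3 CPM, Isg15 at 24.5 ± 10.6 and 30.7 ± 8.7 CPM, Ifit3 at 3.84 ± 3.73 and 2.44 ± 0.964 CPM, Oas2 at 5.96 ± 1.36 and 6.47 ± 1.77 CPM, and Usp18 at 56.8 ± 26.5 and 51.1 ± 7.26 CPM. All of these overlapped. Without 12 month control 9814 the log2 fold changes turned from 0.09 to -0.26 for Irf7, from 0.15 to -0.23 for Usp18 and from 0.66 to -0.28 for Ifit3, none past the threshold (edgeR FDR = 0.425, 0.412 and 0.762). Bst2 was at 89.7 ± 6.46 and 129 ± 25 CPM without overlap (-0.53 ± 0.12, FDR = 0.0572). Leaving out 6 month control 1618 raised the count to 1.

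**Figure D3:**
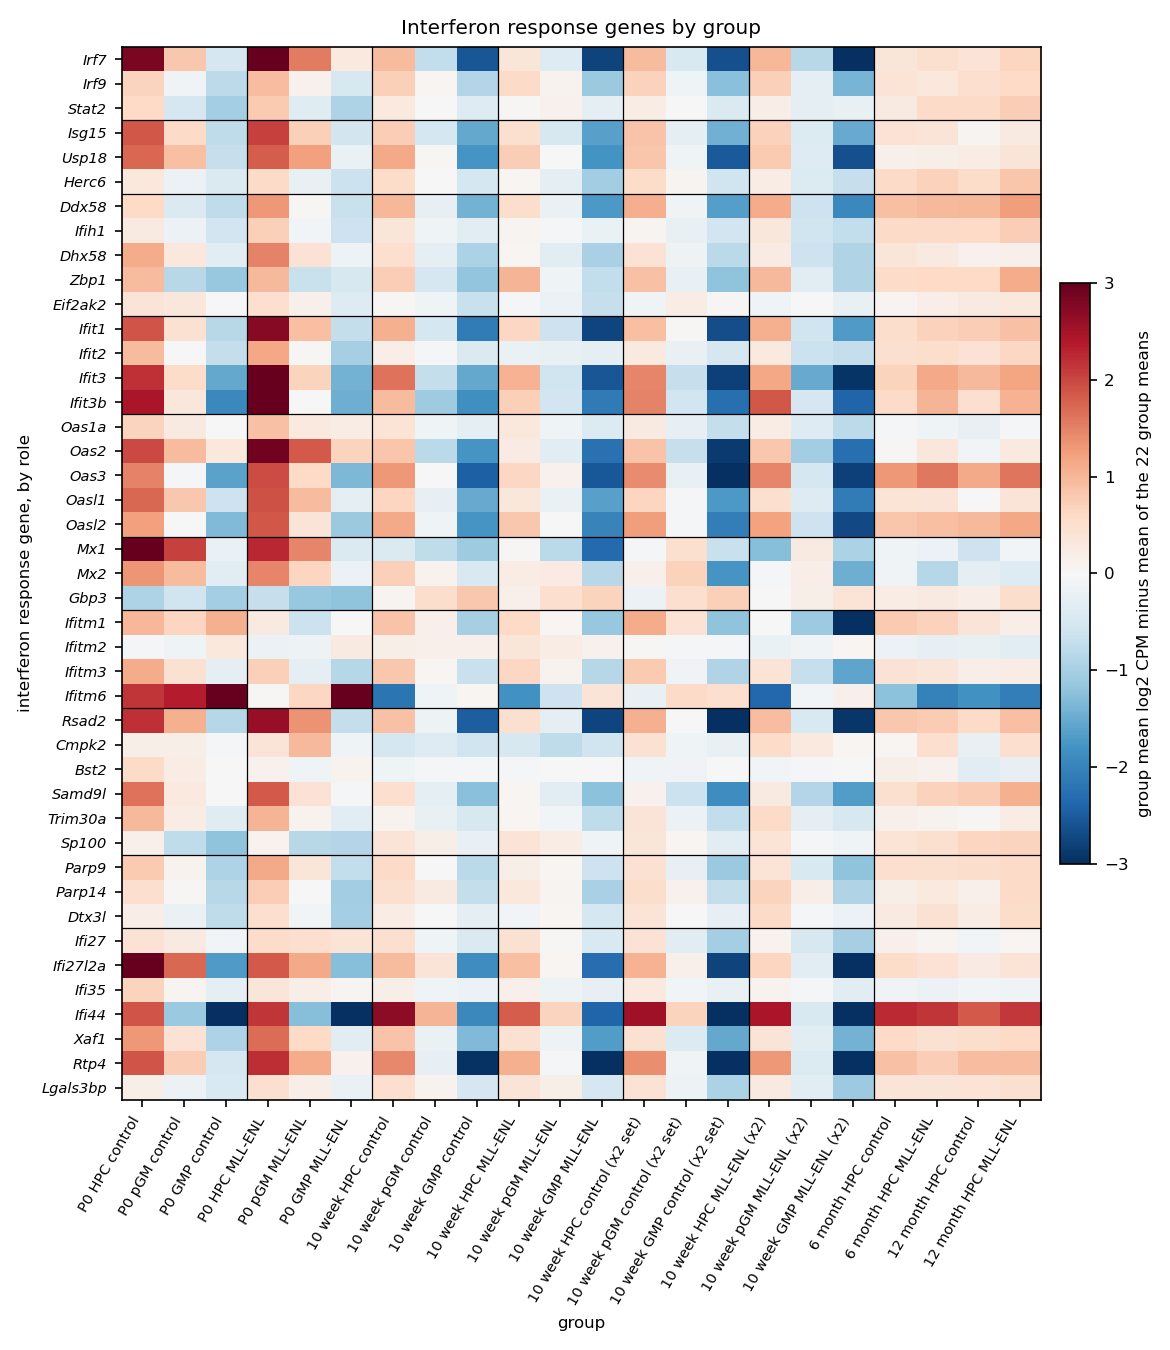
Group means of log2 CPM of the 43 members (rows, ordered by role) in the 22 groups (columns), each row centred on its mean over groups. Most rows are highest in P0 HPC and lowest in GMP, whereas Gbp3 is lowest in the P0 groups.

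Against their controls, MLL-ENL progenitors had no member higher in the main edgeR fits (no library left out, no block) in any of 11 comparisons. In these fits 3 members were lower in at least 1: Ifitm1 in 5, Ifitm6 in 1 and Ifi27l2a in 1. The share of all genes lower, or higher, in at least 1 of the 11 was not computed. These pooled counts therefore cannot be read as particular to the members. Signs leaned either way: in HPC, pGM and GMP 33, 24 and 29 of 43 members had a positive fold change at P0, and 8, 28 and 9 at 10 weeks. In HPC 19 were positive at 6 months and 36 at 12 months. In MLL-ENL (x2) HPC, pGM and GMP 17, 5 and 14 were positive. The share of all genes with a positive sign was not computed. In P0 HPC all 3 members named were lower and 0 members were higher (5.18% of all genes lower, 2.42% higher; members' median 0.16, all genes -0.03). In P0 pGM 1 member was lower and 0 higher (0.188% and 0.161%), as in P0 GMP (0.0336% and 0.0805%). In both it was Ifitm1. No member was called at 10 weeks in HPC (0.0537% of all genes lower, 0.121% higher), pGM (0.0403% and 0.0537%) or GMP (0.00671% and 0.0134%). There edgeR gave 0 members with an unadjusted p under 0.05, DESeq2 called 0, and so did edgeR without the libraries labelled 73. None was called at 6 months (0% lower, 0.00766% higher; 0 with unadjusted p under 0.05, 0 in DESeq2) or at 12 months (0% and 0.00766%; 7 and 0). In the MLL-ENL (x2) set 0 members were called in HPC (0.428% lower, 0.568% higher; 3 with unadjusted p under 0.05; Ifitm1 and Ifitm6 lower in DESeq2), and Ifitm1 alone was lower in pGM (0.435% and 0.4%) and GMP (0.631% and 0.266%). DESeq2 also called Ifi44 (-1.15) and Oasl2 (-0.56) lower in pGM. In GMP it called Ifi44 (-2.33) and Oasl2 (-0.63) lower and Ifit1 higher (FDR = 0.0373). In edgeR Ifit1 had 3.78 CPM in MLL-ENL (x2) GMP and 1.86 CPM in controls (1.03, FDR = 0.0929), and it passed as higher without MLL-ENL (x2) 5900 (1.26, FDR = 0.0358). MLL-ENL and MLL-ENL (x2) comparisons used different controls. With the number in the label as a block, edgeR called 8 members higher and 5 lower in P0 HPC (10.4% and 9.15% of all genes). Pairing by number was not shown in that comparison.

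Ifitm1 had 500, 687, 1150 and 648 CPM in P0 control HPC and 358, 408, 598 and 390 CPM in MLL-ENL HPC. The highest MLL-ENL library lay above the lowest control (log2 fold change -0.81 ± 0.23, FDR = 0.0219). In P0 pGM it had 522, 582 and 558 CPM in controls and 214, 216, 302 and 190 CPM in MLL-ENL libraries (-1.27 ± 0.25, FDR = 0.00586). In P0 GMP it had 869, 807, 726 and 599 CPM against 514, 290, 384 and 263 CPM (-1.04 ± 0.23, FDR = 0.0453). Both later fractions were free of overlap. With the replicate number as a block, 2 members were lower in P0 pGM, Ifitm1 and Ifitm6 (0.781% of all genes lower). The P0 HPC call of Ifitm1 was lost without control 4 (FDR = 0.187) or MLL-ENL 2, 3 or 5. The P0 GMP call was lost without control 2, 3 or 4 or MLL-ENL 3, 4 or 5 (lowest and highest log2 fold change on leaving out any 1 library -1.25 and -0.92), with RLE scaling (FDR = 0.0627) and with the 2 groups fitted alone (FDR = 0.254).

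At 10 weeks Ifitm1 had 640, 660, 591 and 669 CPM in control HPC and 317, 744, 659 and 548 CPM in MLL-ENL HPC, where the low value is that of the library labelled 73. Control and MLL-ENL libraries were intermixed there, in pGM (431, 355, 388 and 407 CPM against 452, 363, 391 and 291 CPM) and in GMP (193, 192, 223 and 119 CPM against 166, 176, 190 and 127 CPM). The log2 fold changes were -0.17, -0.09 and -0.13. The difference between the 10 week and P0 effects did not pass for Ifitm1 in HPC (0.65, FDR = 0.365), pGM (1.18, FDR = 0.727) or GMP (0.91, FDR = 1). At 6 months the ranges were 490 to 925 CPM in controls and 437 to 775 CPM in MLL-ENL HPC, and at 12 months 396 to 567 and 276 to 510 CPM.

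In the MLL-ENL (x2) set Ifitm1 had 698, 847, 860 and 676 CPM in control HPC and 330, 289 and 488 CPM in MLL-ENL (x2) HPC, with no overlap but no call (-1.06 ± 0.30, FDR = 0.112). In pGM it had 403, 556, 464 and 502 CPM against 174, 111 and 244 CPM (-1.44 ± 0.30, FDR = 0.0157). In GMP it had 184, 267, 102 and 114 CPM against 40, 31.7 and 50.8 CPM (-2.03 ± 0.31, FDR = 0.0016). All 3 fractions separated control from MLL-ENL (x2) libraries. The pGM call was lost without control 4894 (FDR = 0.055), MLL-ENL (x2) 5293 (FDR = 0.0736) or 5897 (FDR = 0.138), whereas the GMP call remained on leaving out each of the 7 libraries. The MLL-ENL (x2) effect on Ifitm1 minus the 10 week MLL-ENL effect, a contrast chosen after these values were seen and fitted over all 84 libraries, was -1.89 ± 0.38 in GMP (FDR = 0.0106, 0.0836% of 15548 genes called). It was -1.37 ± 0.37 in pGM (FDR = 0.218, 0.0386%) and -0.89 ± 0.37 in HPC (FDR = 0.929, 0%).

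**Figure D4:**
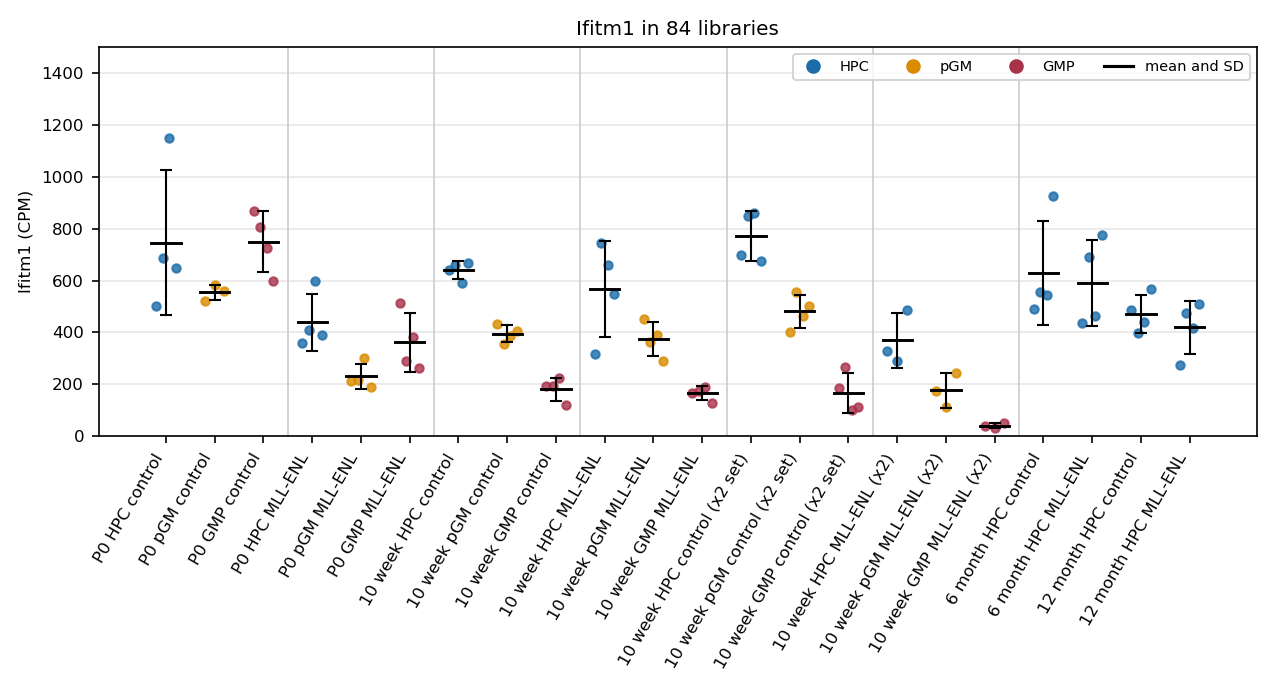
Ifitm1 level (CPM, vertical axis) in each library by group, with bars for the group mean and SD. Control groups come before the MLL-ENL or MLL-ENL (x2) groups of the same age and set. MLL-ENL libraries lie below their controls in P0 pGM and GMP and in all 3 fractions of the MLL-ENL (x2) set, and among them at 10 weeks.

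Ifitm6 had 20.9, 20.8, 19.4 and 28 CPM in P0 control HPC and 3.33, 6.3, 4.96 and 5.94 CPM in MLL-ENL HPC, with no overlap (-2.16 ± 0.50, FDR = 0.00475). In P0 pGM its controls (31.3, 25.7 and 21.2 CPM) also lay above the MLL-ENL libraries (11.1, 6.48, 6.19 and 7.64 CPM), while in P0 GMP the groups were intermixed (20.4, 134, 56.9 and 99.7 CPM against 20.9, 156, 123 and 124 CPM). In 10 week HPC both genotypes were near the bottom of its range, and the difference between the 10 week and P0 effects was 2.91 ± 0.79 (FDR = 0.0471; 1.24% of all genes higher and 0.356% lower in that contrast). That call was lost without the libraries labelled 73, with RLE scaling, and in 12 of 16 fits that left out 1 library, all but those without 10 week control 80 or MLL-ENL 74, 78 or 81. No member passed that contrast in pGM (0% higher, 0.00671% lower; 3 with unadjusted p under 0.05, 0 in DESeq2) or GMP (0.00671% higher, 0% lower; 1 and 0). Ifi27l2a had 58.5, 129, 85.4 and 111 CPM in P0 control HPC and 34.9, 54.5, 33.3 and 40.2 CPM in MLL-ENL HPC (-1.28 ± 0.38, FDR = 0.0281). Its lowest control lay just above its highest MLL-ENL library. In x2-set HPC, Ifitm6 stood at 10.5, 11.3, 1.51 and 1.58 CPM in controls and 1.27, 0.387 and 1.15 CPM in MLL-ENL (x2) libraries (-2.70 ± 0.74, FDR = 0.102).

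Monocyte and dendritic cell markers moved with the P0 HPC results. The summed CPM of those 16 genes was 26100 (14400 to 35100) in P0 control HPC and 4190 (3010 to 5690) in MLL-ENL HPC, with 12 of 16 lower and none at 0 in either group. Their part in the Ifitm6, Ifi27l2a and Ifitm1 results was not tested. The sums were 2260 to 3580 and 1320 to 1750 in P0 pGM (3 of 16 lower) and 1920 to 3570 and 1840 to 4040 in P0 GMP. Neutrophil markers summed to 27 to 2260 CPM in x2-set control HPC and 30.9 to 80.3 CPM in MLL-ENL (x2) HPC, which was not tested against Ifitm6. Without MLL-ENL number 2 or 5 the P0 HPC count of 3 was 1.

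Within the P0 groups the members moved together between libraries. The score's SD was 0.43 to 0.62 in the 6 P0 groups and 0.05 to 0.26 in the 16 others without the libraries labelled 73. The median SD of a member's log2 CPM was 0.49 to 0.59 at P0, where that of all genes was 0.30 to 0.37. In the 14 later groups without a library labelled 73 these were 0.17 to 0.36 and 0.20 to 0.41, and the members' value reached 0.54 in the groups that hold them. Libraries with number 3 in the label had the highest score in all 6 P0 groups, at 6.79, 5.87 and 5.23 in control HPC, pGM and GMP and 6.68, 5.75 and 4.98 in MLL-ENL. Control number 2 was lowest in all 3 fractions (5.54, 4.65 and 3.79). Control number 3 was the highest library for 37 of 43 members in HPC, 38 in pGM and 39 in GMP, where it was highest for 21.4%, 31.6% and 25% of all genes. MLL-ENL number 3 was highest for 22, 25 and 21 members (25.4%, 25.9% and 23.4% of all genes), and number 5, with scores of 5.72 in pGM and 4.93 in GMP, was close to it. Irf7 showed the same order, with 213 CPM in control number 2 and 668 CPM in number 3 in HPC, 47.3 and 178 CPM in pGM, and 16.7 and 94.5 CPM in GMP. The labels do not say that a number marks 1 animal or litter across fractions, and these orders carry no test.

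**Figure D5:**
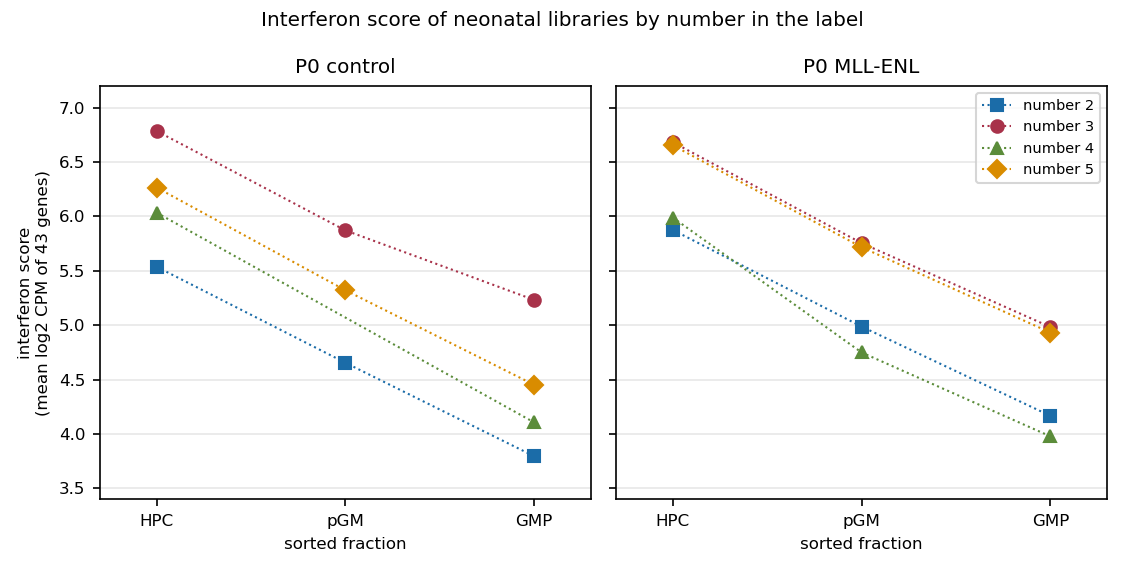
Interferon score (mean log2 CPM of 43 genes) of P0 control and MLL-ENL libraries in HPC, pGM and GMP, with dotted lines joining libraries that carry the same number in the label. Number 3 is the highest in each fraction, and control number 2 the lowest.

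Upstream of the members, none of 21 interferon ligand genes in the table could be tested: 14 were at 0 in all 84 libraries, and the highest count of any was 3. The receptor gene Ifnar1 was read at 58.8 ± 6.68 CPM in P0 control HPC and 43.9 ± 15.5 CPM at 10 weeks, and Ifnar2 at 27.6 ± 9.05 and 28.2 ± 10.2 CPM (SD, n = 4 each). Of 14 receptor and signalling genes tested with age, 1 was higher and 3 lower in control HPC (Jak1 0.75, Ifngr2 -1.03, Ifngr1 -0.82, Jak2 -0.79), 1 and 1 in pGM (Jak1 0.67, Ifngr2 -0.55) and 1 and 1 in GMP (Ifnar2 0.85, Jak2 -1.08). In MLL-ENL libraries 0 passed in HPC and pGM, and Ifnar2 (1.25) and Jak2 (-0.91) in GMP. Of the 7 interferon regulatory factors outside the members, Irf1, an activator that interferon gamma induces strongly, was higher at 10 weeks in all 3 control fractions (0.86, 0.94 and 1.10) and all 3 MLL-ENL fractions (0.69, 1.14 and 1.09). Irf8 was lower in control HPC (-2.85) and higher in control GMP (2.15) and MLL-ENL GMP (2.14). Irf5 (-1.85) fell in control HPC, Irf4 in pGM (-2.66 in controls, -2.46 in MLL-ENL), and Irf3 (0.73) rose in control GMP. Of 17 nucleic acid sensing genes, 5 were lower and 0 higher in control HPC, with Tlr3 (-6.06), Tlr9 (-7.72), Samhd1 (-1.16) and Unc93b1 (-1.12) first, 0 passed in pGM, and Samhd1 (-0.59) fell in GMP. In MLL-ENL HPC 6 fell and 1 rose, led by Tlr3, Samhd1 (-0.73), Ikbke (-0.72) and Aim2 (-0.75). In pGM Tmem173 (0.93) rose and Samhd1 (-0.59) fell, and in GMP Samhd1 (-0.64) fell.

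Along the steps in controls, several interferon regulatory factors were called. At P0 they included Irf5 (-1.46) and Irf4 (2.23) in pGM and Irf4 (-8.02), Irf5 (-1.31), Irf1 (-0.92) and Irf8 (-1.96) in GMP. At 10 weeks they included Irf8 (3.01) in pGM and Irf4 (-4.25), Irf2 (-1.06) and Irf1 (-0.76) in GMP. Those of the x2 set included Irf8 (2.46), Irf2 (-0.79) and Irf1 (-0.40) in pGM and Irf2 (-1.07), Irf1 (-0.75) and Irf5 (-0.99) in GMP. Receptor and signalling calls included Jak2 (-0.78) in P0 pGM, and Socs3 (-2.04, -1.84 and -2.71) and Ifngr1 (1.30, 1.24 and 1.51) in GMP of the P0, 10 week and x2 controls. Jak1 (-0.63) was lower in 10 week GMP, and Ifngr2 (0.51) higher in x2-set GMP. Sensing genes called included Tlr3 (-4.47) and Samhd1 (-0.81) in P0 pGM, Tlr3 (-3.03), Tlr7 (-1.53) and Ikbke (0.77) in P0 GMP, Tlr7 (-1.58) and Tlr9 (4.96) in 10 week pGM, and Tlr7 (-2.20), Tlr3 (-2.59) and Ikbke (0.80) in 10 week GMP. In the x2 set they were Tlr7 (-1.73) and Adar (-0.43) in pGM, and 2 higher and 4 lower in GMP, led by Tlr7 (-2.24), Ikbke (1.11), Adar (-0.52) and Unc93b1 (0.61). Between genotypes, P0 HPC had Jak1 (0.63) higher and Ifngr2 (-0.75), Ifngr1 (-0.66), Irf5 (-1.35), Tlr3 (-2.53) and Cgas (-0.66) lower, and P0 pGM had Tlr3 (-3.34) lower.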

How the data were processed

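RNA of 84 libraries was prepared with the Qiagen RNeasy micro plus and Clontech SMARTer kits, per the labels' protocols. The authors deposited raw read counts by Ensembl gene, made with STAR (3.0.4), Subread and featureCounts 1.4.5, per the submitters' processing notes. No source used here gives the build, annotation or strand setting. Symbols and positions came from GENCODE vM21 (GRCm38), promoters from RefSeq (GRCm38.p6). No column was left unmapped.

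Groups came from the labels. Libraries were told apart by their identifiers into 3 sets (P0 with 10 weeks, 47 libraries; the older ages, 16; the x2 set, 21) and fitted separately with edgeR 4.0.16 (R 4.3.3, limma 3.58.1) on 14899, 13059 and 14260 genes: TMM scaling, filterByExpr, quasi-likelihood F test, 1 mean per group, Benjamini-Hochberg FDR 0.05 over all genes. Common biological coefficients of variation were 0.297, 0.224 and 0.268. SEs are the fold change over the root of F. CPM used TMM factors over all 84 libraries, with a prior count of 2 for log2 values. Motifs, sums and figures were computed with Python 3.11.15 (pandas 2.3.3, numpy 2.4.6, matplotlib 3.10.9). Members and lists were chosen with earlier results of these data known. Some genes of the pathway lists are not reported here.

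Every member past FDR 0.05 was named where at most 12 passed, otherwise the 10 with the smallest p per direction. Irf7, Stat2, Isg15, Ifit3, Oas2, Usp18 and Bst2 were given by level in each age comparison, and up to 4 genes per pathway list. Same-numbered libraries were taken as paired where the correlation of their deviations from group means (6801 genes) was over 0.1 in every pair. It was 0.26 to 0.45 for MLL-ENL against control in P0 pGM, 0.31 to 0.66 in P0 GMP, 0.30 to 0.70 for P0 GMP against pGM, 0.24 to 0.55 and 0.18 to 0.72 for the 10 week steps and 0.46 to 0.63 and 0.43 to 0.68 for the x2-set steps. The numbers come from the labels, which do not say what they mark. In P0 HPC (-0.11 to 0.59) and P0 pGM against HPC (-0.03 to 0.55) the libraries were not taken as paired.

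Alternatives were RLE scaling (which moved the median of all genes by at most 0.052), no filter, DESeq2 1.42.0, all 84 libraries in 1 fit, only the groups compared, the block, pooled 10 week controls, leaving out both libraries labelled 73 and leaving out each library. The contrast of MLL-ENL (x2) with MLL-ENL effects was added after seeing the data. On data simulated for control HPC by age (14410 genes), edgeR recovered 56.8% of genes changed 2-fold and 74% of those changed 4-fold. For 6 month HPC (12887 genes) it recovered 69.7% and 91%, and for x2-set HPC (13912 genes) 38.8% and 81.6%. The changed genes were picked at random and drawn independently. Members at P0 were more spread than all genes and moved together, so the recovery by age need not hold for them.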

Additional observations from a re-analysis of the deposited data

Results flagged for a closer look

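Of 198 sets of 4 libraries of 1 group tested (10 members and the score in each), 19 held a library whose gap to the nearest other exceeded Dixon's critical value; chance flags about 1 in 20 groups. At P0, Oas2 was low in MLL-ENL HPC number 4 (29.5 CPM, others 52.6 to 56.8), Ifi27l2a high in control GMP number 3 (7.4 CPM, others 2.22 to 2.76) and Stat2 high in MLL-ENL GMP number 2 (28.5 CPM, others 12.3 to 14.8). At 10 weeks the MLL-ENL pGM library labelled 73 was high for Irf7 (109 CPM, others 28.6 to 30.5), Ifit3 (5.22 CPM, others 0.292 to 0.634) and Usp18 (76.5 CPM, others 33.8 to 40.8), and the HPC library labelled 73 for Ifitm6 (4.49 CPM, others 0.538 to 1.1). Ifit3 was high in control GMP 80 (1.81 CPM, others 0.0785 to 0.331). At 6 months control HPC 1717 was low for Stat2 (22.4 CPM, others 44.7 to 45.4) and high for Ifitm1 (925 CPM, others 490 to 556), and HPC 1704 was high for Ifit3 (4.98 CPM, others 2.71 to 2.91).

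At 12 months control HPC 9814 stood above the other controls in score (5.67, others 5.13 to 5.20), Irf7 (125 CPM, others 56.1 to 63.2), Isg15 (40.3 CPM, others 18.1 to 21.2), Ifit3 (9.41 CPM, others 1.48 to 2.35) and Usp18 (96.5 CPM, others 42 to 44.7). It was the highest of its group for 34 of 43 members, against 27.2% of all genes. Control HPC 9756 was high for Ifitm6 (4.43 CPM, others 0.515 to 1.12), MLL-ENL HPC 9123 low for Stat2 (44.6 CPM, others 54.2 to 55.8), and x2-set control GMP 5898 low for Isg15 (6.32 CPM, others 8.44 to 8.78).

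Differences between effects passed a test of the difference for 2 members: Ifitm6 in HPC between 10 weeks and P0 (2.91), and Ifitm1 in GMP between MLL-ENL (x2) and MLL-ENL (-1.89).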

How the results depend on the processing

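Of 17107 member values under alternatives, 16454 kept their side of the threshold, 277 lost and 376 gained a call and 0 reversed while called. Values not called in either fit were counted as kept even where their sign changed. The score kept its order of HPC above pGM above GMP in 12 of 12 steps under 6 other settings, with a range of group means of 2.66 to 2.92. The setting limited to members of at least 1 CPM on average kept all 43 and so only repeated the main score. Counts of members called that moved by over 1.5 times follow, and the cause was not tested. Among these alternatives the share of all genes called was computed for the block alone. The other moves therefore cannot be read as particular to the members. P0 HPC: 13 with the replicate block (8 higher and 5 lower, beside 10.4% and 9.15% of all genes, the pairing not shown there). P0 pGM: 2 with the groups compared alone and with the replicate block (2 lower and 0 higher, beside 0.781% and 0.441% of all genes). P0 GMP: 0 with RLE scaling and with the groups alone. MLL-ENL (x2) HPC: 2 with no filter, DESeq2 and all 84 libraries, 1 with pooled controls. MLL-ENL (x2) pGM: 3 with DESeq2, 2 with the groups alone and with pooled controls. MLL-ENL (x2) GMP: 2 with no filter, 4 with DESeq2 (1 higher). Control HPC by age: 18 with pooled controls. Control pGM by age: 12 with all 84, 16 pooled. 12 against 6 months: 1 with DESeq2. Difference of effects in HPC: 0 with RLE, all 84, the groups alone and without 73. P0 pGM against HPC: 13 with all 84, 28 with the block (28 lower and 0 higher, beside 7.41% and 3.92% of all genes, not shown as paired). P0 GMP against pGM: 19 with all 84, 6 alone, 23 with the block. 10 week pGM against HPC: 8 with DESeq2, 13 with all 84, 9 without 73, 22 alone, 26 with the block, 32 pooled. 10 week GMP against pGM: 31 pooled. x2-set pGM against HPC: 14 with all 84. The block changed no other count by over 1.5 times. Leaving out each library in turn gave 1 to 3 in P0 HPC, 0 to 1 in P0 GMP, 0 to 1 in MLL-ENL (x2) HPC (1 without control 5898 or 5899 or MLL-ENL (x2) 5293), 0 to 1 in pGM and 1 to 2 in GMP (2 without 5293 or 5900, Ifit1 being higher without 5900), 0 to 1 for 12 against 6 months, 7 to 14 for MLL-ENL pGM and 11 to 21 for MLL-ENL GMP by age, and 0 to 1 for the difference of effects in HPC. For the steps it gave 3 to 9 in P0 pGM, 2 to 21 in P0 GMP and 0 to 5 in 10 week pGM. Pooled controls were not run for MLL-ENL age comparisons, which hold none. Members under 1 CPM rest on few counts.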

Other observations

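Among 76 other interferon response genes, chosen with earlier results known, more were lower than higher at every step in controls: 26, 17, 13, 24, 22 and 36 lower and 0, 1, 4, 0, 5 and 3 higher (HPC to pGM and pGM to GMP, in P0, 10 week and x2-set order). Of all genes 4.52%, 7.5%, 3.5%, 9.97%, 6.37% and 14.3% were lower at these steps, and 3.19%, 6.43%, 2.71%, 5.76%, 5.85% and 8.25% higher. Those with the smallest p were Phf11b (-2.66), Ly6a (-4.27), Ifi205 (-4.16) and Epsti1 (-1.11) in P0 pGM, and Ifi203 (-1.97), Mndal (-1.69), Phf11b (-2.26) and Nlrc5 (-2.0) in P0 GMP. At 10 weeks they were Ifi209 (2.59), Ly6a (-3.43), Gbp2 (-1.22) and Ifi205 (4.62) in pGM and Ifi203 (-1.38), Epsti1 (-1.30), Gbp2 (-1.34) and Ccl5 (-3.15) in GMP. In x2-set controls they were Ly6a (-3.37), Shisa5 (-1.60), Tgtp1 (-1.76) and Ifi209 (2.13) in pGM and Ly6a (-3.20), Tgtp1 (-3.18), Ifi203 (-1.77) and Epsti1 (-1.69) in GMP. Ly6a encodes Sca-1, a surface antigen used to sort progenitors, and the part of the sort in its fall was not tested.

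With age the same list divided: 12, 15 and 16 genes were higher and 15, 6 and 5 lower at 10 weeks in control HPC, pGM and GMP, and 12, 22 and 18 higher and 16, 6 and 14 lower in MLL-ENL libraries. Of all genes 7.28%, 3.99% and 4.29% were higher and 9%, 5.17% and 7.95% lower in controls. In MLL-ENL libraries 11.7%, 7.17% and 7.92% were higher and 10.1%, 8.03% and 12.3% lower. H2-Q7 and H2-K1 had the smallest p of the higher genes in all 3 control fractions. H2-K1, a classical class I molecule, was at 424 ± 96.6 CPM in P0 control HPC and 1460 ± 157 CPM at 10 weeks (SD, n = 4 each; log2 fold changes 1.78, 2.25 and 1.96 in control HPC, pGM and GMP, and 1.28, 2.17 and 1.55 in MLL-ENL). H2-Q7 was at 1.15 ± 0.58 and 84.7 ± 16.4 CPM, but it has close copies between which reads may have been split. Nlrc5, the transactivator of class I genes, was higher in pGM (2.34 in controls, 2.32 in MLL-ENL) and GMP (3.64 and 3.54), B2m (1.4) in MLL-ENL pGM and the immunoproteasome subunit Psmb8 in control GMP (1.14) and MLL-ENL HPC (1.19). Ifi205 (-9.91) and Ifi211 (-5.69) fell in control HPC, Ifi205 (-5.06) in MLL-ENL HPC, and Slfn2 in control pGM (-2.73) and MLL-ENL GMP (-2.65). Between genotypes 1 of the 76 was higher and 8 lower in P0 HPC (2.42% and 5.18% of all genes), with Ifi30 (-2.22), Ifi211 (-2.89), Slfn2 (-2.07) and Psmb8 (-0.74) first. Ifi30 (-1.28) was lower in MLL-ENL (x2) HPC (0.428% of all genes lower).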
